A study of Mus musculus with 8 samples.

Results

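Keratins and the genes of the cornified envelope were followed in mouse embryonic stem (ES) cells and in embryoid bodies on day 2 (EBd2), the aggregates in which ES cells leave pluripotency. They are the 78 rows, of 36255 in the deposited table of counts, whose symbol is a keratin (Krt and a number) or a small proline-rich protein (Sprr and a number), plus Krtdap, Lor, Flg, Ivl, Evpl, Ppl and Tgm1. The family was chosen by name, but it was selected on measured values: Krt8, Krt18 and Krt17 in ES cells and Sprr2a2, Sprr2a3 and Krtdap in EBd2 were already known to differ between the genotypes. For that reason differences between genotypes are given below as descriptions without p-values, and those 6 genes and Sprr2a1 carry no p-value in any comparison.

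The study compared cells with floxed Skp1a (fl/fl, the wild-type arm) with cells labelled Skp1a KO, at both stages. Its title concerns the turnover of the Polycomb complex PRC2 through SKP1A and the activation of genes that Polycomb silences. The 4 groups were fl/fl ES cells (lots 1 and 2), KO-labelled ES cells (lots 1 and 12), fl/fl EBd2 (lots 1 and 12) and KO-labelled EBd2 (lots 1 and 2), with 2 libraries of poly(A) RNA in each. All were grown in standard ES or embryoid body medium, and the labels give no parental line, Cre driver, number of clones or meaning of a lot. The labels' tissue field calls every KO-labelled library stem cells and every fl/fl library embryoid bodies, against the sample titles, which were followed here. Skp1a itself was at 420 and 430 CPM (counts scaled to a common library total, with TMM factors) in the fl/fl ES libraries, 369 and 361 CPM in KO-labelled ES cells, 401 and 389 CPM in the fl/fl EBd2 libraries and 286 and 289 CPM in KO-labelled EBd2. The KO-labelled libraries were thus lower at each stage but kept most of the transcript. Total counts were 21545868 to 23343471 in the ES libraries and 7858452 to 10055667 in the EBd2 libraries, so stage and depth cannot be told apart. By stage markers, 8 naive pluripotency genes summed to 2199 and 2172 CPM in the fl/fl ES libraries and 1788 and 1808 CPM in KO-labelled ES cells, against 901 to 1049 CPM in the EBd2 libraries. The 6 formative epiblast markers that mark the exit from that state summed to 2144 and 2297 CPM in the fl/fl EBd2 libraries. They summed to 471 and 487 CPM in KO-labelled EBd2, against 292 to 353 CPM in the ES libraries. In KO-labelled cells 5 of the 6 were called higher in EBd2 than in ES cells and 0 lower (edgeR), beside 31.7% and 33.1% of all genes.

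Keratins form intermediate filaments as obligate pairs of a type I (acidic) and a type II (basic) chain. Simple, single-layered epithelia use Krt8 with Krt18, joined by Krt7, Krt19, Krt20 and Krt23 in particular linings, and Krt8 and Krt18 are among the earliest keratins of the embryo. The basal layer of stratified epithelia uses Krt5 with Krt14 and Krt15, the layers above it switch to pairs such as Krt1 with Krt10, and Krt6, Krt16 and Krt17 are induced in stressed or wounded epidermis. In the outermost cells, transglutaminases such as Tgm1 crosslink involucrin (Ivl), loricrin (Lor), the Sprr proteins, envoplakin (Evpl) and periplakin (Ppl) into the cornified envelope, and filaggrin (Flg) bundles the filaments.

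The 78 genes fell into 6 simple keratins, 3 basal keratins, 13 suprabasal or regional keratins, 4 stress keratins, 24 hair keratins, 24 cornified envelope genes and 4 other keratins. They lie on 6 chromosomes, with 28 on chromosome 11 (type I keratins and Evpl), 27 on chromosome 15 (type II keratins and Krt18) and 20 on chromosome 3 (the Sprr genes, Lor, Ivl and Flg). No read was counted for 22 of them in any library, 13 keratins and 9 Sprr genes. A filter on low counts passed 26, and of the 52 that did not pass, 30 had at least 1 count and none exceeded 10 counts in a library.

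The sequences upstream of 2 Sprr2a copies are shown because near-identical copies are at issue in the counts, and those of Krt8, Krt18 and Krtdap because the results below turn on these genes. Sprr2b, a neighbour of the Sprr2a copies with 0 counts in all 8 libraries, is shown for comparison. RefSeq windows (GRCm38.p6) run from 250 bases before to 50 bases after the annotated start and were found for 55 of the 78 genes. Each is written 5′ to 3′ on the strand of the gene, and capitals mark the TATA box TATAAA, the AP-1 motif TGANTCA or the TEAD motif GGAATG on either strand. The windows are chr3:92250397-92250696 for Sprr2a2, chr3:92285054-92285353 for Sprr2a3, chr3:92316455-92316754 for Sprr2b and chr7:30787655-30787954 on chromosome 7 for Krtdap, all on the plus strand. The neighbours Krt8 (minus strand, chr15:102004293-102004592) and Krt18 (plus strand, chr15:102027966-102028265) point away from each other with 23698 bases between their 5′ ends.
Sprr2a2: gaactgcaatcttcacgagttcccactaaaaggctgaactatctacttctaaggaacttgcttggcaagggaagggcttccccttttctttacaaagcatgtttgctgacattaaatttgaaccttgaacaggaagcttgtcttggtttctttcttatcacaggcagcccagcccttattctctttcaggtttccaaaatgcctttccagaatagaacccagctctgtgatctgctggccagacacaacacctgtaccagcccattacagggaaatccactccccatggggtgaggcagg
Sprr2a3: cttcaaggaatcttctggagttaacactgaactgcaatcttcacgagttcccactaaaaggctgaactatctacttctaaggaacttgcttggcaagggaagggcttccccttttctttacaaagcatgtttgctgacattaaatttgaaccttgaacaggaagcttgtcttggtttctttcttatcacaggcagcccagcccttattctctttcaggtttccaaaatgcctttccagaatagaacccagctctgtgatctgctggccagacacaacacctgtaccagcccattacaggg
Sprr2b: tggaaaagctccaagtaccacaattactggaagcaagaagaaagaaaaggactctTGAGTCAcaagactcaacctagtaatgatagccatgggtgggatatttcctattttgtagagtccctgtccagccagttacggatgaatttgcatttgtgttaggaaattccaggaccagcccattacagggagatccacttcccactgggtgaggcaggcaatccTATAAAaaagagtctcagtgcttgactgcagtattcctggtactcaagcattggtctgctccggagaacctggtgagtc
Krtdap: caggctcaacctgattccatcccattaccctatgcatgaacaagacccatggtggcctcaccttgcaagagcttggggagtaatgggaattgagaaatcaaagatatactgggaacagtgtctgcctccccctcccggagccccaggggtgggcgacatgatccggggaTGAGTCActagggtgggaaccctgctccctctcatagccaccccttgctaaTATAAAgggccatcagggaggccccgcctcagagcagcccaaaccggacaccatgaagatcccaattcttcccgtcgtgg
Krt8: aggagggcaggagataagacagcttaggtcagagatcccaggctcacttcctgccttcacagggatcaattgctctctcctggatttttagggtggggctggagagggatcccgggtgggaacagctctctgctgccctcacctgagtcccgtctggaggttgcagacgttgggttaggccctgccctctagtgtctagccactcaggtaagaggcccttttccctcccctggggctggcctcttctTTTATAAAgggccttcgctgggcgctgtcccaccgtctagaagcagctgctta
Krt18: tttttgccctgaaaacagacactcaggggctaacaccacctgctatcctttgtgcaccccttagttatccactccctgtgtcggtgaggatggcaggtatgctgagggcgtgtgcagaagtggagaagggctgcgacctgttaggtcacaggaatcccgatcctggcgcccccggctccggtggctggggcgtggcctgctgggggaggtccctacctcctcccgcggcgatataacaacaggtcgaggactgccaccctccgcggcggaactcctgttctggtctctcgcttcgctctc

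The window of Sprr2a1 (chr3:92215585-92215884) was identical to that of Sprr2a2 over all 300 bases, and 272 of these bases ran unbroken through the Sprr2a3 window. None of the 3 motifs was in the Sprr2a windows or in the Krt18 window. In the Krt8 window TATAAA began 1 base before the annotated start, and its reverse complement TTTATA began 3 bases before it. Krtdap held TATAAA 30 bases and TGAGTCA 81 bases before its start, and the neighbouring Sprr2b held TATAAA at 29 bases and TGAGTCA at 195 bases. The letters that end the Sprr2a2 window lie just before TATAAA in the Sprr2b window, and the Sprr2a3 window ends earlier still. The Sprr2a windows thus stop short of the matching place, and whether TATAAA lies beyond them was not examined. Over the 57 windows of the family, some genes having more than 1, TATAAA was in 33, TGANTCA in 15 and GGAATG in 6, where 13.62%, 7.808% and 14.66% of all 32851 windows of the same length held them. Other motifs searched on both strands were AACCNGTT (Grainyhead-like), found in 0 windows of the family against 2.088% of all, AGATAA (bound by the GATA family) in 10 against 11.18%, AGGAAG (ETS) in 24 against 35.35% and GGGNGGGG (KLF or SP) in 11 against 33.24%. These letters depend on where RefSeq sets the start, and no binding was measured.

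Krt8 and Krt18 had the highest levels per length of the family in all 8 libraries. Krt8, the type II chain of simple epithelia, was at 53.0 and 51.2 CPM in the fl/fl ES libraries, 78.3 and 82.8 CPM in KO-labelled ES cells, 71.5 and 73.2 CPM in the fl/fl EBd2 libraries and 350.2 and 343.7 CPM in KO-labelled EBd2. Its partner Krt18 was at 56.4 and 56.8, 79.1 and 82.8, 96.3 and 90.3, and 245.4 and 242.8 CPM in the same order. Both genes were lowest in the fl/fl ES libraries and highest in KO-labelled EBd2, and no groups overlapped. The middle places differed, with KO-labelled ES cells above fl/fl EBd2 for Krt8 and below it for Krt18. From ES cells to EBd2, Krt8 was higher by 0.47 ± 0.05 (log2 fold change ± SE, edgeR) in fl/fl cells and by 2.11 ± 0.04 in KO-labelled cells, and Krt18 by 0.72 ± 0.05 and 1.59 ± 0.04. KO-labelled cells exceeded fl/fl cells by 0.63 ± 0.04 (Krt8) and 0.52 ± 0.04 (Krt18) in ES cells, and by 2.26 ± 0.04 and 1.39 ± 0.04 in EBd2. Since the libraries are bulk RNA, more cells with these keratins and more keratin RNA per cell cannot be told apart, here and for every gene below.

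The balance of the pair also differed. Per kilobase of merged exons, the Krt8 to Krt18 ratio was 0.690 and 0.662 in the fl/fl ES libraries, 0.726 and 0.734 in KO-labelled ES cells, 0.545 and 0.595 in the fl/fl EBd2 libraries and 1.05 and 1.04 in KO-labelled EBd2. By these ratios the type I chain was the more abundant in 6 libraries and the type II chain slightly so in the 2 of KO-labelled EBd2. Of all 50-base stretches of Krt8 transcripts, 70.3% occur in no other gene, most of the rest being shared with the pseudogene Krt8-ps. For Krt18 the share was 99.3%. How reads with several matches were counted is not given, so which chain was the more abundant is uncertain.

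**Figure D1:**
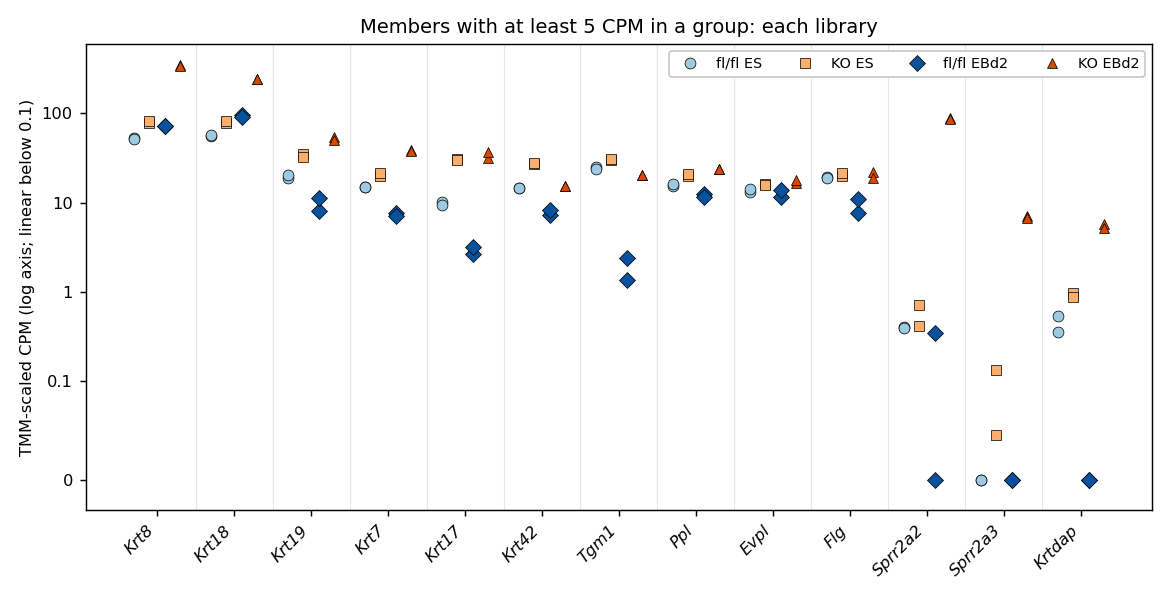
Level of the 13 genes that reached 5 CPM in a group, in each of the 8 libraries (vertical axis, TMM-scaled CPM on a log axis that is linear below 0.1; colours and shapes are the 4 groups). Krt8 and Krt18 are highest in KO-labelled EBd2 and detected in every library, and Sprr2a2, Sprr2a3 and Krtdap are below 1 CPM outside KO-labelled EBd2, where Sprr2a2 reached 88.6 and 87.0 CPM.

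Krt19 and Krt7 moved in opposite directions between the stages of the fl/fl and the KO-labelled cells. Krt19, a type I keratin of ducts and of the trophoblast, was at 18.9 and 20.4 CPM in the fl/fl ES libraries and 8.09 and 11.4 CPM in the fl/fl EBd2 libraries, but at 35.1 and 32.9 CPM in KO-labelled ES cells and 53.9 and 50.3 CPM in KO-labelled EBd2. It fell by 0.99 ± 0.13 in fl/fl cells (adjusted p = 5.49e-05, edgeR's quasi-likelihood test with Benjamini-Hochberg adjustment over 16542 genes, as for all adjusted p-values below) and rose by 0.62 ± 0.08 in KO-labelled cells (adjusted p = 5.88e-05). Krt7, its type II counterpart in many glandular epithelia, was at 14.85 and 15.03 CPM, then 7.68 and 7.15 CPM, in fl/fl cells, and at 19.9 and 21.7 CPM, then 39.0 and 38.1 CPM, in KO-labelled cells. The fall of 1.01 ± 0.11 in fl/fl cells (adjusted p = 1.17e-05) and the rise of 0.89 ± 0.07 in KO-labelled cells (adjusted p = 8.32e-07) left the KO-labelled EBd2 libraries higher by 2.40 ± 0.12 for Krt19 and 2.38 ± 0.10 for Krt7. In ES cells the same differences were 0.79 ± 0.09 and 0.48 ± 0.07.

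Krt20 and Krt23 were far lower. Krt20, a keratin of intestinal and urothelial linings, had 44 and 33 counts in the fl/fl ES libraries, 58 and 69 in KO-labelled ES cells, 6 and 10 in the fl/fl EBd2 libraries and 19 and 13 in KO-labelled EBd2. Its change to EBd2 was -0.85 ± 0.38 in fl/fl cells (adjusted p = 0.0711) and -0.94 ± 0.30 in KO-labelled cells (adjusted p = 0.0179), so it did not share the rise of the other simple keratins in KO-labelled cells. The fall in KO-labelled cells missed the threshold when KO-labelled ES lot 12 was left out (-0.78, adjusted p = 0.106) or KO-labelled EBd2 lot 2 (-0.63, adjusted p = 0.152), with DESeq2 (adjusted p = 0.108) and with libraries thinned to the smallest (-0.64, adjusted p = 0.189). Krt23 had 28 and 31 counts in KO-labelled EBd2, 1 count in fl/fl ES lot 2 and 0 in the other 5 libraries. It was at least 40.5-fold higher in KO-labelled EBd2 than in KO-labelled ES cells and at least 14.8-fold higher than in the fl/fl EBd2 libraries, with 3 counts over the group taken as the floor. No p is given, since Krt23 passed the filter only through KO-labelled EBd2.

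**Figure D2:**
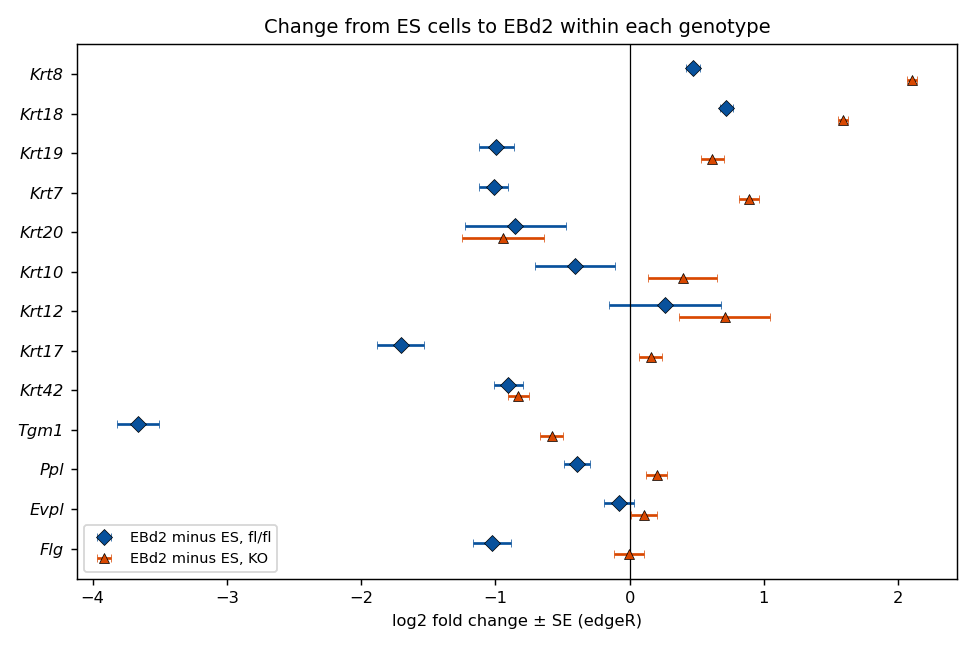
Log2 fold change from ES cells to EBd2 (horizontal axis, ± SE from edgeR; n = 2 libraries per group) of 13 genes, in fl/fl cells (diamonds) and KO-labelled cells (triangles). Krt19, Krt7, Krt17, Krt10, Ppl and Evpl lie left of 0 in fl/fl cells and right of it in KO-labelled cells. Krt8, Krt18 and Krt12 lie right of 0 in both, and Krt20, Krt42, Flg and Tgm1 left of it in both. The changes of Krt10, Krt12 and Evpl were called in neither genotype.

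The basal keratins of stratified epithelia were detected at low counts, and KO-labelled EBd2 held most of them. Krt5, the type II chain of basal keratinocytes, had 4 and 1 counts in the fl/fl ES libraries, 6 and 7 in KO-labelled ES cells, 0 and 1 in the fl/fl EBd2 libraries and 33 and 39 in KO-labelled EBd2. Its partner Krt14 had 2 and 11, 22 and 18, 4 and 2, and 34 and 31 counts in the same order, and Krt15 had 1 and 1, 4 and 4, 0 and 0, and 10 and 11. In KO-labelled cells Krt14 rose by 1.74 ± 0.47 (adjusted p = 0.00690), and in fl/fl cells its adjusted p was 0.796. The rise missed the threshold with lots as a block in the edgeR fit (adjusted p = 0.128). Of the 50-base stretches of Krt14, 86.1% are found in no other gene. The rest is shared with Krt16 and Krt17, which makes its low counts uncertain. Krt5 and Krt15 were higher in KO-labelled EBd2 than in KO-labelled ES cells by 3.47 ± 0.48 and 2.38 ± 0.60. These values carry no p, since both genes passed the filter on low counts only through KO-labelled EBd2, where they are high.

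In EBd2, KO-labelled libraries exceeded fl/fl libraries 54.1-fold for Krt5 (95% interval 9.41 to 2167, counting error only) and at least 5.26-fold for Krt15. Krt14 was higher by 2.996 ± 0.65 on the log2 scale. Summed per kilobase, the 3 basal keratins nevertheless made up 0.808% and 0.777% of the family's level in KO-labelled EBd2, against 79.8% and 79.3% for the 6 simple keratins. Trp63, the master regulator of the basal keratinocyte, stayed between 0 and 0.268 CPM in all libraries.

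Among the stress keratins, Krt17 was higher in KO-labelled libraries at both stages, and it was lower in EBd2 than in ES cells in fl/fl cells only. It was at 10.1 and 9.32 CPM in the fl/fl ES libraries, 31.3 and 30.1 CPM in KO-labelled ES cells, 2.70 and 3.23 CPM in the fl/fl EBd2 libraries and 31.5 and 36.7 CPM in KO-labelled EBd2. The step to EBd2 was -1.71 ± 0.17 in fl/fl cells and 0.16 ± 0.08 in KO-labelled cells, and KO-labelled libraries were higher by 1.65 ± 0.09 in ES cells and 3.52 ± 0.15 in EBd2. Its neighbour Krt16, named after its values were seen, had 23 and 27, 61 and 61, 2 and 2, and 37 and 38 counts in the same order of groups. It fell by 2.20 ± 0.48 in fl/fl cells (adjusted p = 0.00197) and changed by 0.34 ± 0.23 in KO-labelled cells (adjusted p = 0.216). Of the 50-base stretches of Krt16, 62.4% are found in no other gene, and the rest is shared with Krt14, Krt17 and another annotated gene, which makes its counts uncertain.

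Krt42, a type I keratin that lies beside Krt16 and Krt17 on chromosome 11, fell in both genotypes. It was at 14.6 and 14.4 CPM in the fl/fl ES libraries, 26.9 and 27.8 CPM in KO-labelled ES cells, 7.28 and 8.19 CPM in the fl/fl EBd2 libraries and 15.3 and 15.5 CPM in KO-labelled EBd2. The falls were 0.90 ± 0.11 (adjusted p = 1.98e-05) and 0.83 ± 0.08 (adjusted p = 2.88e-06), and the excess of the KO-labelled libraries was 0.91 ± 0.07 in ES cells and 0.99 ± 0.11 in EBd2. Krt17 and Krt42 were thus both highest per stage in KO-labelled cells, but only Krt42 was lower in KO-labelled EBd2 than in KO-labelled ES cells.

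The suprabasal and hair keratins stayed low. Of 13 suprabasal or regional keratins 4 passed the filter, Krt10, Krt12, Krt13 and Krt80, and none exceeded 4.01 CPM in a library. Krt10, the type I chain of the spinous layer, was at 2.22 to 2.78 CPM in ES cells of both genotypes, 1.75 and 2.19 CPM in the fl/fl EBd2 libraries and 4.01 and 2.59 CPM in KO-labelled EBd2, with adjusted p-values of 0.261 and 0.195 for the change to EBd2. Its layer partner Krt1 did not pass the filter. Krt80, a type II keratin linked to desmosomes, had another pattern, with 14 and 9 counts in the fl/fl ES libraries, 59 and 53 in KO-labelled ES cells, 8 and 11 in the fl/fl EBd2 libraries and 9 and 10 in KO-labelled EBd2. It fell by 1.51 ± 0.33 in KO-labelled cells (adjusted p = 0.00184) and rose by 1.12 ± 0.40 in fl/fl cells (adjusted p = 0.0313), and it was also singled out after its values were seen. The rise in fl/fl cells missed the threshold without fl/fl ES lot 2 (adjusted p = 0.125), without either fl/fl EBd2 lot (0.0596 and 0.174) and without either KO-labelled ES lot (0.0539 and 0.0514). It also missed it with DESeq2 (adjusted p = 0.154), with no filter (0.0562) and in a fit of the 4 libraries compared (0.0898). Of 24 hair keratins only Krt75 passed the filter, 11 had 0 counts everywhere and no other exceeded 4 counts in a library.

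**Figure D3:**
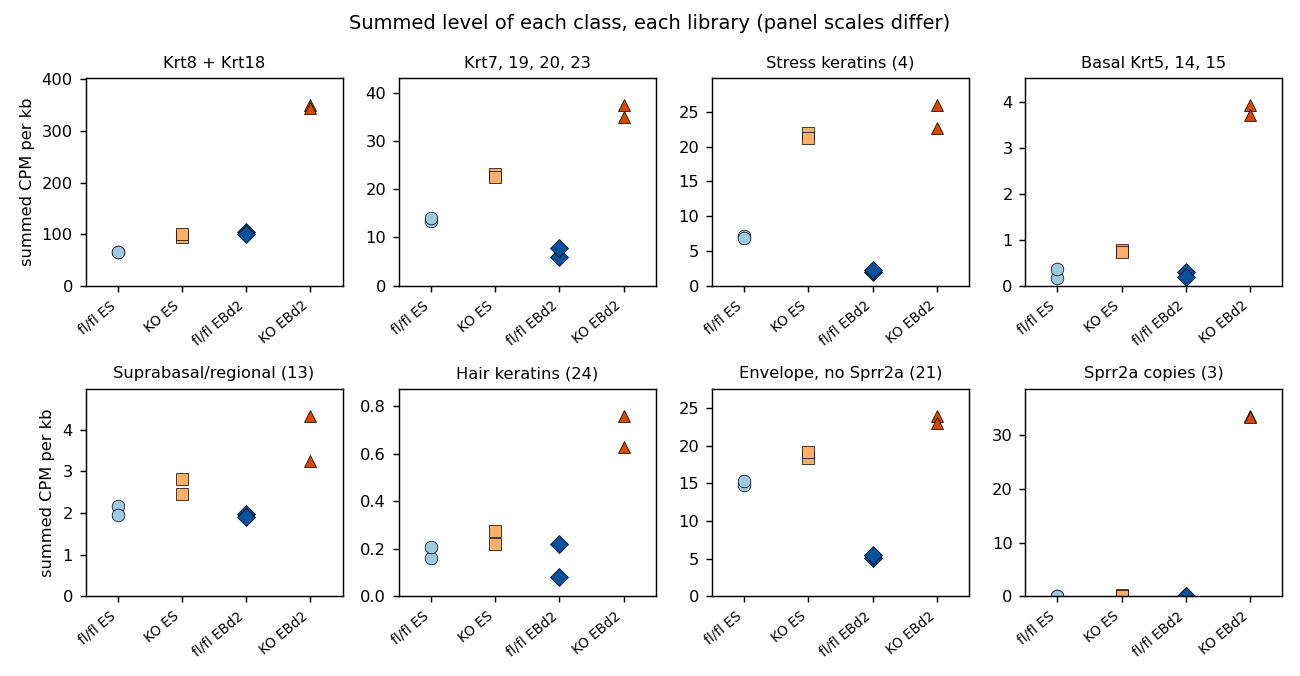
Level of each class summed over its genes (vertical axes, TMM-scaled CPM per kilobase, each panel with its own scale from 0) in each library of the 4 groups. Krt8 with Krt18 reach 350 and 345 in KO-labelled EBd2, whereas the basal keratins reach 3.92 and 3.72 and the hair keratins 0.629 and 0.757.

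Cornified envelope genes differed among themselves in their pattern over the groups. Tgm1, the membrane-bound crosslinking transglutaminase, was detected in all libraries and was lowest in the fl/fl EBd2 libraries. It was at 24.95 and 23.96 CPM in the fl/fl ES libraries, 30.0 and 31.2 CPM in KO-labelled ES cells, 1.35 and 2.42 CPM in the fl/fl EBd2 libraries and 20.3 and 20.6 CPM in KO-labelled EBd2. It fell by 3.66 ± 0.16 in fl/fl cells (adjusted p = 6.65e-09) and by 0.58 ± 0.09 in KO-labelled cells (adjusted p = 0.000114). Tgm1 in KO-labelled EBd2 was therefore closer to the ES cell level than to that of fl/fl EBd2, from which it differed by 3.40 ± 0.17.

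The plakins anchor filaments and seed the envelope scaffold. Periplakin (Ppl) was at 15.5 and 16.4 CPM in the fl/fl ES libraries, 20.1 and 21.2 CPM in KO-labelled ES cells, 12.7 and 11.6 CPM in the fl/fl EBd2 libraries and 23.9 and 23.6 CPM in KO-labelled EBd2. It fell by 0.39 ± 0.10 in fl/fl cells (adjusted p = 0.00460), a call that missed the threshold without fl/fl EBd2 lot 12 (-0.33, adjusted p = 0.0644) and with libraries thinned to the smallest (-0.29, adjusted p = 0.0724). Its rise of 0.20 ± 0.08 in KO-labelled cells (adjusted p = 0.0376) missed the threshold when each of the 4 KO-labelled libraries was left out in turn, at adjusted p-values of 0.0586 to 0.181, and with DESeq2 (0.158) and with no filter (0.172). Envoplakin (Evpl) was at 13.1 and 14.3, 16.04 and 15.98, 11.7 and 14.1, and 16.4 and 18.0 CPM, with adjusted p-values of 0.609 and 0.337 for the change to EBd2.

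Filaggrin (Flg), the filament-bundling protein of the granular layer, was at 19.7 and 18.9 CPM in the fl/fl ES libraries, 19.96 and 21.58 CPM in KO-labelled ES cells, 7.68 and 11.1 CPM in the fl/fl EBd2 libraries and 22.3 and 19.1 CPM in KO-labelled EBd2. It fell by 1.02 ± 0.14 in fl/fl cells (adjusted p = 7.96e-05). In KO-labelled cells the libraries of both stages overlapped and the change was -0.01 ± 0.11 (adjusted p = 0.967). The major late envelope proteins stayed near the floor, since Ivl had 5 and 3 counts in KO-labelled EBd2 and at most 1 elsewhere, and Lor had 19 and 16 counts there and 1 to 8 elsewhere. Lor was higher in KO-labelled EBd2 than in KO-labelled ES cells by 2.67 ± 0.61, with no p given because KO-labelled EBd2 was the one group in which it reached the filter's level. Both Ivl and Lor are named in addition to the genes at 5 CPM.

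Krtdap, a small secreted protein of differentiating keratinocytes, had 8 and 11 counts in the fl/fl ES libraries, 22 and 19 in KO-labelled ES cells, 0 and 0 in the fl/fl EBd2 libraries and 59 and 59 in KO-labelled EBd2. That is 5.78 and 5.27 CPM in KO-labelled EBd2, at least 29.6-fold above fl/fl EBd2 and 2.56 ± 0.30 above KO-labelled ES cells on the log2 scale. Every 50-base stretch of Krtdap is found in no other gene, so its reads are not shared with the Sprr genes.

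The Sprr2a copies were each below 1 CPM outside KO-labelled EBd2. Sprr2a2, a crosslinked envelope precursor, had 9 and 8 counts in the fl/fl ES libraries, 16 and 9 in KO-labelled ES cells, 0 and 3 in the fl/fl EBd2 libraries and 905 and 974 in KO-labelled EBd2. Sprr2a3 had 72 and 76 counts in KO-labelled EBd2, 3 and 1 in KO-labelled ES cells and 0 in the 4 fl/fl libraries, and Sprr2a1 had 21 and 41 counts in KO-labelled EBd2 and 0 elsewhere. All 3 copies were therefore highest in both KO-labelled EBd2 libraries. KO-labelled EBd2 exceeded fl/fl EBd2 471-fold for Sprr2a2 (95% interval 161 to 2285, counting error only), at least 37.1-fold for Sprr2a3 and at least 15.5-fold for Sprr2a1.

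How the reads divide among the copies is uncertain. Only 3.72% of the 50-base stretches of Sprr2a1 transcripts and 3.53% of those of Sprr2a2 are found in no other gene, against 38.9% for Sprr2a3, and with 100-base stretches the shares were 7.51%, 7.19% and 63.8%. The transcripts of Sprr2a1 and Sprr2a2 share an unbroken run of 1392 bases, as their promoter windows printed above share every base. Sprr2a2 received 90.7% and 89.3% of the Sprr2a counts in KO-labelled EBd2, and the sources used here do not give how reads matching several copies were counted. Summed over the copies, which avoids that choice unless such reads were dropped, the level was 97.7 and 97.5 CPM in KO-labelled EBd2 and 0 to 0.846 CPM in the other 6 libraries. The summed difference was 7.19 ± 0.16 from KO-labelled ES cells and 8.97 ± 0.24 from fl/fl EBd2, where the group held 3 counts.

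**Figure D4:**
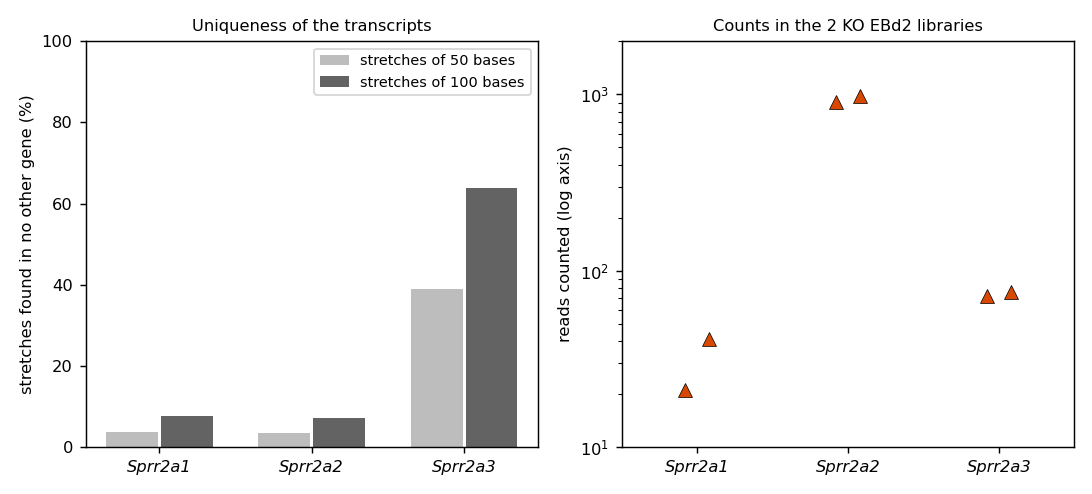
Left, share of all 50-base and 100-base stretches of each Sprr2a copy's transcripts that occur in no other gene (vertical axis in percent, from 0). Right, counts of each copy in the 2 KO-labelled EBd2 libraries (log axis). Sprr2a2 holds the most counts, 905 and 974, although 3.53% of its 50-base stretches are unique.

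The other Sprr genes did not share this pattern. Of the 17 Sprr rows, 9 had 0 counts in all libraries and only the 3 Sprr2a copies passed the filter. Sprr2k, which was singled out after its counts were seen, had 10 and 9 counts in the fl/fl ES libraries, 10 and 9 in KO-labelled ES cells and 0 in all 4 EBd2 libraries, which was at least 2.38-fold lower in fl/fl cells and at least 3.08-fold lower in KO-labelled cells. Leaving out the Sprr2a copies, the other 21 envelope genes summed to 14.7 and 15.3 CPM per kilobase in the fl/fl ES libraries, 18.3 and 19.2 in KO-labelled ES cells, 5.06 and 5.52 in the fl/fl EBd2 libraries and 23.93 and 22.998 in KO-labelled EBd2. The 3 copies added 33.6 and 33.5 CPM per kilobase of merged exons in KO-labelled EBd2 and at most 0.291 elsewhere.

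Set against each other per kilobase, simple keratins outweighed stratified genes in every group. In KO-labelled EBd2 the mean levels per kilobase were 177 for Krt8, 170 for Krt18, 30.2 for Sprr2a2, 28.1 for Krt19, 22.0 for Krt17, 8.74 for Krt42, 8.14 for Krtdap, 6.47 for Tgm1 and 5.46 for Krt7, whose merged exons span 7049 bases. The value of Sprr2a2 divides by 2910 bases of merged exons, whereas its shorter annotated transcript has 722 bases. Which transcript was expressed was not examined, so its place in this order and the shares below depend on the length used. The simple keratins made up 70.7% and 70.7% of the family's summed level in the fl/fl ES libraries, 66.4% and 67.2% in KO-labelled ES cells, 88.8% and 87.9% in the fl/fl EBd2 libraries and 79.8% and 79.3% in KO-labelled EBd2. The share was thus highest in the fl/fl EBd2 libraries, where the stress keratins and Tgm1 were lowest, and lower in KO-labelled EBd2, where the simple keratins' summed level was highest at 387 and 379 CPM per kilobase. Counts of the whole family were 0.0240% and 0.0239% of the total in the fl/fl ES libraries, 0.0375% and 0.0386% in KO-labelled ES cells, 0.0222% and 0.0229% in the fl/fl EBd2 libraries and 0.105% and 0.104% in KO-labelled EBd2.

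Counted over the 26 genes that passed the filter, EBd2 against ES cells gave 3 higher and 9 lower in fl/fl cells, beside 28.9% and 30.1% of all 16542 genes, and 16 higher and 4 lower in KO-labelled cells, beside 31.7% and 33.1%. Median changes were -0.84 and 1.24 (-0.85 and 1.24 with genes against a group at 0 set to their bound), against -0.02 and -0.00 over all genes. KO-labelled against fl/fl libraries gave 10 higher and 0 lower in ES cells, beside 10.9% and 12.8% of all genes, and 22 higher and 0 lower in EBd2, beside 30.7% and 31.5%. At an unadjusted p under 0.05 edgeR also placed 0 lower at either stage, with 15 and 24 higher, and DESeq2 placed 0 lower, with 8 and 18 higher among those it gave an adjusted p. The medians were 0.66 and 2.54 (0.66 and 2.40 with bounds), against 0.00 and 0.00 over all genes. Nothing is read from these counts. Those between genotypes include the genes on whose genotype differences the family was selected, Krt8, Krt18 and Krt17 in ES cells and Sprr2a2, Sprr2a3 and Krtdap in EBd2. In addition 7 of the 26, Krt5, Krt13, Krt15, Krt23, Krt75, Sprr2a1 and Sprr2a3, reached the filter's level of 0.633 CPM in KO-labelled EBd2 libraries only, so they had to be higher there. Scaling by library size alone changed the split over all genes from 5071 higher and 5217 lower to 7071 and 3354 in EBd2 and from 1806 and 2119 to 2817 and 1090 in ES cells, and from 5248 and 5476 to 6662 and 4106 for the change to EBd2 in KO-labelled cells. The median over all genes then lay at 0.23, 0.07 and 0.14, and the family's counts were 24, 11 and 23, with 0, 0 and 4 lower.

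Other genes of keratinocyte differentiation, 39 that are not in the family, were compared in the same fit, and 21 passed the filter. From ES cells to EBd2, 1 rose and 12 fell in fl/fl cells, while 13 rose and 3 fell in KO-labelled cells, with medians of -0.87 and 0.89. Of all genes tested, 28.9% rose and 30.1% fell in fl/fl cells and 31.7% rose and 33.1% fell in KO-labelled cells, shares that apply to every list below. Suprabasin (Sbsn), a secreted product of differentiating keratinocytes, rose by 2.45 ± 0.11 (adjusted p = 8.31e-09) in KO-labelled cells, to 33.1 and 33.9 CPM, and changed by -0.22 ± 0.18 in fl/fl cells (adjusted p = 0.327). S100a11, a calcium-binding envelope component, rose by 1.07 ± 0.05 in KO-labelled cells (adjusted p = 1.27e-08) and fell by 0.50 ± 0.07 in fl/fl cells (adjusted p = 7.26e-05). Annexin A1 (Anxa1) fell by 3.64 ± 0.13 in fl/fl cells (adjusted p = 1.71e-09) and changed by 0.02 ± 0.07 in KO-labelled cells (adjusted p = 0.801). S100a6 fell in both, by 3.05 ± 0.10 (adjusted p = 8.26e-10) in fl/fl cells and by 0.58 ± 0.06 (adjusted p = 3.37e-06) in KO-labelled cells. The late envelope genes Lce1a1, Lce1b and Lce3c and Cnfn had 0 counts in all 8 libraries.

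Of 34 epithelial transcription and splicing regulators 30 passed the filter, and 4 rose and 12 fell in fl/fl cells, while 14 rose and 11 fell in KO-labelled cells (medians -0.26 and 0.21). The 11 that fell are near the share over all genes. Cdx2, a regulator of trophectoderm and of intestinal epithelium, was at 0.312 and 0.185 CPM in KO-labelled ES cells and 20.17 and 20.998 CPM in KO-labelled EBd2, higher by 6.32 ± 0.23, and it was at most 0.576 CPM in the fl/fl libraries. It has no p here because it reached the filter's level in KO-labelled EBd2 only. Klf4, which acts in naive pluripotency and in the skin barrier, fell by 3.63 ± 0.07 in fl/fl cells (adjusted p = 2.30e-11) and by 1.42 ± 0.05 in KO-labelled cells (adjusted p = 2.07e-09). Klf5 fell by 1.46 ± 0.05 in fl/fl cells (adjusted p = 5.86e-10) and by 0.26 ± 0.04 in KO-labelled cells (adjusted p = 0.000114). Elf3, an epithelial ETS factor, fell by 1.39 ± 0.06 (adjusted p = 3.67e-09) and by 0.56 ± 0.05 (adjusted p = 1.08e-06).

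Of 18 filament partners 17 passed, and 3 rose and 7 fell in fl/fl cells, while 9 rose and 5 fell in KO-labelled cells (medians -0.06 and 0.41). The 5 that fell are again near the share over all genes. Desmoplakin (Dsp), which ties keratin filaments to desmosomes, rose by 1.63 ± 0.06 in KO-labelled cells (adjusted p = 1.89e-09) and changed by 0.13 ± 0.08 in fl/fl cells (adjusted p = 0.166). Itgb4, the hemidesmosomal integrin chain, fell by 1.94 ± 0.11 in fl/fl cells (adjusted p = 3.74e-08) and rose by 0.90 ± 0.06 in KO-labelled cells (adjusted p = 2.78e-07). Its partner chain Itga6 fell by 0.78 ± 0.04 in KO-labelled cells (adjusted p = 1.71e-08). In fl/fl cells Itga6 fell by 0.11 ± 0.04 (adjusted p = 0.0279), a call that missed the threshold after thinning (0.0864) and without any one of the 4 fl/fl libraries (0.0640 to 0.116). Vimentin (Vim), the intermediate filament of mesenchymal cells, changed in both, by -2.87 ± 0.06 (adjusted p = 2.19e-11) and -1.45 ± 0.04 (adjusted p = 3.43e-10).

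Markers of epithelial cell types that carry keratins, and of fibroblast feeder cells, also moved with the groups. The part of these cell types in the keratin levels was not tested. Visceral endoderm markers, which belong to a Krt8- and Krt18-positive epithelium, summed to 154 and 157 CPM in the fl/fl ES libraries, 142 and 146 CPM in KO-labelled ES cells, 622 and 678 CPM in the fl/fl EBd2 libraries and 1433 and 1413 CPM in KO-labelled EBd2. Of the 14 markers 13 passed the filter, of which 13 rose in KO-labelled cells and 11 in fl/fl cells, and Afp was at 0 in 3 ES libraries. Keratinocyte and surface ectoderm markers summed to 74.3 and 68.3, 80.9 and 80.3, 34.6 and 33.2, and 134 and 135 CPM in the same order, and of the 10 of 12 that passed the filter 7 rose and 1 fell in KO-labelled cells and 5 fell in fl/fl cells. Dlx5 was at 0 in the 4 fl/fl libraries and Trp63 in 2 libraries.

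Trophectoderm markers summed to 144 to 206 CPM over all libraries, a sum in which members moved apart. Of the 9 of 11 that passed, 5 rose and 2 fell in KO-labelled cells (median 1.78), while 1 rose and 4 fell in fl/fl cells (median -0.17), and Rhox4b and Prl3d1 were each at 0 in 7 libraries. Tfap2c fell from 105.7 and 107.8 CPM to 61.0 and 55.4 CPM in KO-labelled cells, whereas Eomes rose from 12.7 and 15.6 to 64.02 and 62.5 CPM and Hand1 from 2.54 and 2.13 to 15.5 and 16.4 CPM (adjusted p = 3.55e-08, 4.65e-09 and 1.55e-07), beside Cdx2 given above. Mesothelial markers summed to 16.6 and 16.8, 39.0 and 36.1, 36.5 and 37.1, and 70.2 and 72.0 CPM, with Muc16 at 0 in 7 libraries, and amnion markers to 199 and 197, 175 and 177, 150 and 141, and 119 and 113 CPM. Members of both sums moved apart. Of 7 mesothelial markers that passed, 3 rose and 3 fell in fl/fl cells, and 3 rose and 0 fell in KO-labelled cells. In KO-labelled against fl/fl EBd2, 6 of 9 amnion markers were higher and 1 lower, beside 30.7% and 31.5% of all genes. The amnion sum holds Tfap2c, at 102.9 and 98.8 CPM in fl/fl EBd2. Fibroblast feeder markers were high in ES cells, at 911 and 866 CPM in fl/fl and 997 and 1078 CPM in KO-labelled libraries, and lower in EBd2, at 70.6 and 75.6 CPM in fl/fl and 274 and 252 CPM in KO-labelled libraries, where 11 of the 13 that passed fell in each genotype. In KO-labelled cells Krt7, Krt8, Krt18, Krt19, Ppl and, by 0.16 on the log2 scale, Krt17 were higher in both EBd2 libraries than in both ES libraries. Krt20, Krt42, Krt80 and Tgm1 were lower there, as the feeder sum was. In fl/fl cells Krt7, Krt16, Krt17, Krt19, Krt20, Krt42, Flg, Ppl and Tgm1 were lower in both EBd2 libraries, as the feeder sum was. Against the feeder sum, Krt8, Krt18 and Krt80 were higher in fl/fl EBd2, by 0.47, 0.72 and 1.12 on the log2 scale. Any part of feeder cells in these levels was not tested.

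**Figure D5:**
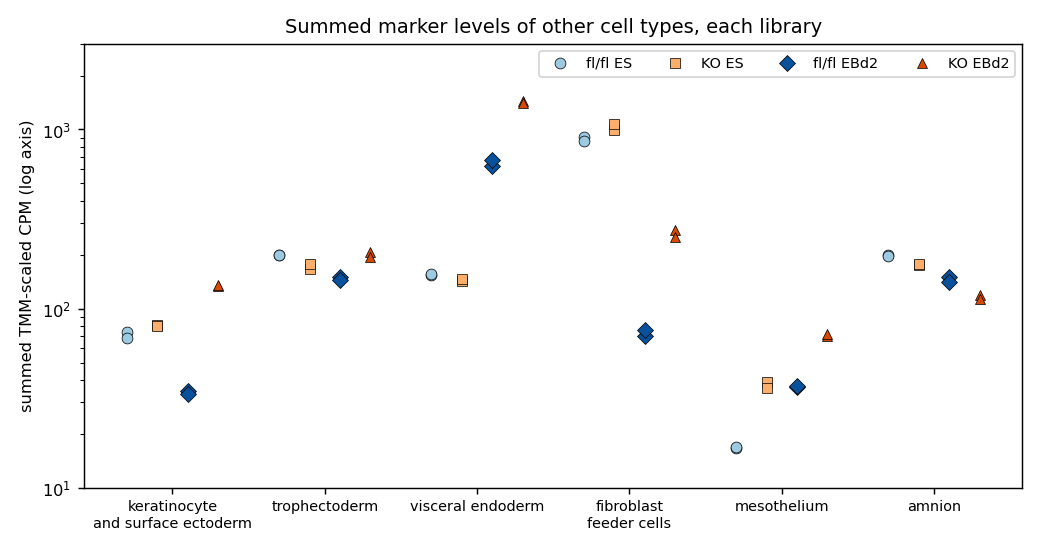
Summed level of the markers of 6 cell types (vertical axis, TMM-scaled CPM on a log axis) in each library of the 4 groups. Visceral endoderm markers reach 1433 and 1413 CPM in KO-labelled EBd2, and feeder markers are lowest in the fl/fl EBd2 libraries at 70.6 and 75.6 CPM.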

How the data were processed

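Poly(A) RNA of 8 libraries was counted per gene symbol by the authors, and the deposited values are raw, unnormalized counts. Reads were trimmed with Trim Galore 0.6.7, and GRCm38 and mm10 are the builds named, per the submitters' processing notes. Aligner, counter, annotation, strand setting and the handling of reads with several matches were not given in the sources. Groups follow the sample titles.

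The count model was edgeR 4.0.16 in R 4.3.3 (filterByExpr with the 4 groups, TMM factors, glmQLFit and glmQLFTest, two-sided) on all 8 libraries. Benjamini-Hochberg adjustment ran over the 16542 genes that passed the filter, and the threshold was 0.05. Total counts of 7858452 to 23343471 per library set the precision. The model's common coefficient of variation was 3.40% on 4 residual degrees of freedom. Nothing in the labels shows that lots are separate cultures, so p-values cover only the spread between the sequenced libraries, which may be technical. Libraries of a group differed by more than sampling noise and were counted as 2. Fold bounds against a group at 0 used 3 counts over the group as the floor. Ratios against 1 to 3 counts have exact 95% intervals, and intervals and floors cover counting error only.

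Levels per kilobase divide CPM by the merged exons of GENCODE vM21 (GRCm38), in which all 78 genes were found. Uniqueness was counted over stretches of 50 and 100 bases of the vM21 transcripts. Promoter windows are from RefSeq. The scripts were tested on simulated data.

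The genes named are those with a mean of at least 5 CPM in a group, all simple and basal keratins and the Sprr2a copies, plus up to 4 called genes with the smallest p, over the changes to EBd2, of each list of other genes named singly. Genes and lists were chosen with earlier results of these data known. Alternatives were other scalings, filters, DESeq2 1.42.0, lots as a block, thinning to the smallest library, the summed Sprr2a copies, a fit of 4 libraries, and each library left out.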

Additional observations from a re-analysis of the deposited data

Results flagged for a closer look

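In 6 genes of the family both EBd2 libraries lay on one side of both ES libraries in fl/fl cells and on the other side in KO-labelled cells. They are 6 of the 17 members with more than 3 counts in every group, and 19.1% of all 15533 genes tested with such counts lay so. The change from ES cells to EBd2 in KO-labelled cells minus that in fl/fl cells was 2.54 for Krt16, 1.86 for Krt17, 1.61 for Krt19, 1.90 for Krt7 and 0.59 for Ppl on the log2 scale. For Krt80 it was -2.63, the one gene of the 6 that was higher in EBd2 in fl/fl cells and lower in KO-labelled cells. In KO-labelled cells the step itself was 0.34 for Krt16, which was not called (adjusted p = 0.216, edgeR), and 0.16 for Krt17, whose values carry no p. The rise of Ppl in KO-labelled cells and that of Krt80 in fl/fl cells missed the threshold under several alternatives, as given above. These differences are given as descriptions, since genotype differences of the family were known when it was chosen.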

How the results depend on the processing

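The counts of genes called in the family stayed within 1.5 times their main value under every alternative run, except that a stricter filter (at least 50 counts) left 15 genes tested and 11 called for EBd2 against ES cells in KO-labelled cells, where 20 of 26 were called in the main fit. Leaving out each library in turn gave 11 to 12 calls for EBd2 against ES cells in fl/fl cells, 16 to 20 in KO-labelled cells, 9 to 10 for KO-labelled against fl/fl ES cells and 19 to 22 in EBd2. Over all genes, calls between genotypes in ES cells numbered 3925, but 2236 with lots as a block, 1924 after thinning to the smallest library, and 2010 and 1934 without fl/fl ES lot 1 or 2. Deviations of same-numbered lots had correlations of -0.0591 to 0.143, 2 of 8 over 0.1. With 2 libraries in a group the deviations mirror each other, so these values are not independent. The 2 over 0.1 are the same value, from KO-labelled ES cells and fl/fl EBd2. The check cannot tell whether lots of the same number share a culture or a batch. With the replicate block 12, 14, 9 and 19 genes of the family were called in the 4 comparisons, Krt14 (adjusted p = 0.128) among those not called for EBd2 against ES cells in KO-labelled cells and Krt80 (0.1601) in fl/fl cells. Of the single-gene values under an alternative, 2186 kept direction and side of the threshold, 53 lost a call, 19 gained one and 18 changed sign, none of which was called. For Evpl in fl/fl cells the change to EBd2 became 0.049 after thinning and ranged from -0.22 to 0.042 with a library left out, the last without fl/fl EBd2 lot 1. For Flg in KO-labelled cells it became 0.0029 with RLE scaling, 0.14 with library size only, 0.017 with the stricter filter, 0.0038 with DESeq2, 0.16 with the block, 0.051 without KO-labelled ES lot 12 and 0.10 without KO-labelled EBd2 lot 2, with a lowest value of -0.12 without KO-labelled EBd2 lot 1. Between genotypes in ES cells Flg became -0.059 with the block, and Krt10 ranged from -0.24 to 0.066 with a library left out, being 0.0033 without fl/fl ES lot 1 and highest without KO-labelled ES lot 12. Anxa1 in KO-labelled cells became -0.016 without a filter and -0.018 with the block, and ranged from -0.015 without KO-labelled ES lot 12 to 0.055 without lot 1. Also between genotypes in ES cells, Hand1 became 0.21 after thinning and ranged from -0.43 to 0.058 with a library left out, and Eomes from -0.034 to 0.27. The cause of these changes was not tested. With 7858452 to 10055667 counts, the EBd2 libraries limit what can be said of genes with few counts, such as Krt5, Krt15, Lor and Ivl.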
